A study of Chlamydomonas reinhardtii with 8 samples.

Results

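The response of *Chlamydomonas reinhardtii* to sulfur starvation was compared between 4 of the 8 arrays of the series, rep3 and rep4 on one side (rep3-4) and rep5 and rep6 on the other (rep5-6). The 4 arrays were chosen by their titles, and the measure compared was the log2 ratio of starved over unstarved RNA. Of 43705 different transcript probes on the array, 11498 were well above background in both channels on all 4 arrays by the marks of the scanner software. For 5 of these no unmarked spot was left on some array, so that 11493 probes (26.3%) of 5980 transcript models were tested. A transcript model is a gene prediction of the JGI genome annotation, and each model is represented by 3 probes, numbered after its JGI identifier (24120/1 is probe 1 of model 24120). Some models have a further probe with no number.

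All 4 arrays were hybridized with RNA of the wild type cc3491. Per the paper's methods, cells were grown in TAP, an acetate medium, to early stationary phase, washed, and kept in TAP without sulfur under constant light. RNA harvested before starvation (T0) was labeled with Cy3 and RNA of starved cells with Cy5 on every array. A positive log2 ratio is therefore read as more RNA in starved cells. With no dye swap, a dye effect of a probe would recur on all 4 arrays, and this was not tested. Like ratios on both sides therefore do not tell starvation from dye. The titles give 24 h of starvation for all 4 arrays, whereas the time field gives 72 h for rep3, 96 h for rep4, 24 h for rep5 and 48 h for rep6. The conflict was not resolved, and the time of starvation on each array is therefore uncertain. Rep3 and rep4 lay on 1 slide together with rep1 and rep2, and rep5 and rep6 on another slide. Labelled time, slide and the dimness of the Cy5 channel described below changed together between the sides and cannot be told apart. The labels do not say which arrays are separate cultures, nor whether T0 RNA was shared, and the paper speaks of technical replicates as well. The p-values therefore measure the spread between these arrays, which may be technical.

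Sulfate is taken up by *C. reinhardtii* through transporters in the plasma membrane, reduced in the chloroplast and built into cysteine. Cells deprived of sulfate are known to raise transporters and assimilation enzymes, to secrete arylsulfatases that free sulfate from organic esters, and to exchange extracellular proteins for ones poor in sulfur amino acids. Photosynthesis is known to decline and the light-harvesting antenna to be remodelled.

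The results turned on probes that gave like ratios of starved over T0 RNA on both sides and on a smaller set that did not. Probe sequences of both kinds are shown, from the study's probe tables, with bases shared between probes of the same model in capitals. Sequences were at hand for 1281 of the tested probes. Of the probes with lower ratios on rep3-4, shown are the pair of model 169295, which was below saturation and whose probes share 47 bases, the pair of model 195590, whose probes have the same sequence and were saturated, and 183576/3, the brightest such unsaturated probe with a sequence.
169295/1: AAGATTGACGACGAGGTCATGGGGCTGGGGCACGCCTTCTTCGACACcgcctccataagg
169295/2: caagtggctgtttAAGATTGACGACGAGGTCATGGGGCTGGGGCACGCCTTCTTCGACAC
195590/1: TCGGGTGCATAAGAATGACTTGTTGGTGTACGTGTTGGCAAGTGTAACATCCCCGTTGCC
195590/3: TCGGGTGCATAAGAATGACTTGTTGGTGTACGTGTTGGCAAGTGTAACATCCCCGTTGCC
183576/3: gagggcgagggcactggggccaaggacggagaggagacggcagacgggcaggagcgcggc
The probes of *PTA3* (model 183357, a proton/phosphate symporter, named *PTB3*, a sodium/phosphate symporter, in another of the study's tables) are shown for a response that was close on both sides. Probe 2 is 50 bases long and lies wholly within probe 1, and probe 3 covers another stretch.
183357/1: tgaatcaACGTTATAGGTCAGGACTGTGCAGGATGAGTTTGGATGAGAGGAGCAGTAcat
183357/2: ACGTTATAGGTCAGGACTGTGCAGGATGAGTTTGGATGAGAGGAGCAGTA
183357/3: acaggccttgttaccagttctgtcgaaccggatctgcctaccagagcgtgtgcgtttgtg

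The arrays differed most in the Cy5 channel. The median Cy5 spot intensity of the tested probes, less local background, was 1120 and 1080 on rep3 and rep4, against 132 and 115 on rep5 and rep6. The Cy3 medians were 696 and 622 on rep3 and rep4, against 594 and 530 on rep5 and rep6. Cy5 on rep5-6 was thus far below Cy5 on rep3-4, while Cy3 was similar. Saturation followed the same order, with 341 and 342 tested probes saturated in Cy5 on rep3 and rep4, against 4 and 3 on rep5 and rep6. In Cy3, 181 and 168 were saturated on rep3 and rep4, against 208 and 186 on rep5 and rep6. Both channels were well above background on both arrays for 18501 probes on rep3-4 and 11498 on rep5-6. A further 7003 probes qualified on rep3-4 but not on rep5-6, and 0 the other way round, so the tested probes were in effect set by rep5-6.

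**Figure D1:**
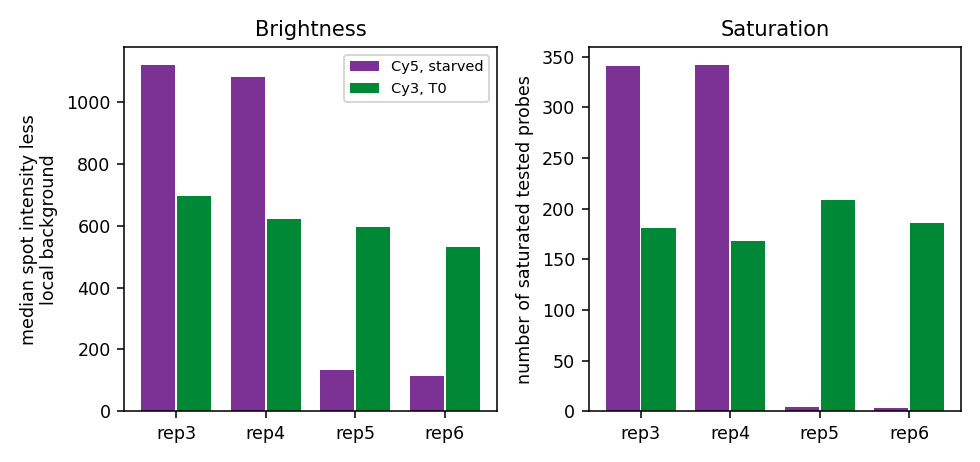
Median spot intensity less local background (left) and number of saturated probes (right) of the 11493 tested probes on each array, for Cy5 (starved RNA) and Cy3 (T0 RNA). Cy5 medians are 1120 and 1080 on rep3 and rep4 and 132 and 115 on rep5 and rep6, and 341 and 342 probes are saturated in Cy5 on rep3 and rep4 against 4 and 3 on rep5 and rep6.

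Spike-in RNA, which is added in known amounts and binds no algal transcript, served as a check of the ratios across this gap in Cy5. Before correction the spike-in ratios of rep3-4 exceeded those of rep5-6 by a median of 3.00 on the log2 scale. After correction by the scanner software and loess the median difference was 0.09. The 8 spike-ins of 10 that were well above background on all 32 spots of every array differed by at most 0.18, and the largest difference of all 10 was 0.46.

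Ratios of starved over T0 RNA departed from 0 for largely shared probes on both sides. By limma's moderated test of the mean log2 ratio against 0, with Benjamini-Hochberg adjusted p under 0.05 and at least 2-fold, 680 probes were higher in starved cells on rep3-4 (5.92% of those tested) and 361 lower (3.14%). On rep5-6, 794 were higher (6.91%) and 523 lower (4.55%). With Holm adjustment, which the paper used, 139 were higher and 50 lower on rep3-4, and 121 higher and 61 lower on rep5-6. Whatever the p, 683 probes were up at least 2-fold on rep3-4 and 805 on rep5-6. Of these, 535 were up on both, which is 78.3% of those on rep3-4 and 66.5% of those on rep5-6. Down at least 2-fold were 365 on rep3-4 and 525 on rep5-6, with 328 on both, which is 89.9% of those on rep3-4 and 62.5% of those on rep5-6. The 863 probes at least 2-fold the same way on both sides became 359 with normexp background correction and 466 without background subtraction. No probe (0) was at least 2-fold up on one side and at least 2-fold down on the other. Of the 1048 probes past 2-fold on rep3-4, 1045 had the same sign on rep5-6, and of the 1330 past 2-fold on rep5-6, 1296 had the same sign on rep3-4.

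Most probes that passed 2-fold on one side alone were not called different between the sides. Of the 148 probes up on rep3-4 alone, 1 was called higher on rep3-4 in the direct test described below, and of the 270 up on rep5-6 alone, 59 were called lower on rep3-4. Of the 37 probes down on rep3-4 alone, 1 was called lower, and of the 197 down on rep5-6 alone 0 were called higher. Of all tested probes 1.19% were called lower and 0.0261% higher, so calls were more frequent among those up on rep5-6 alone. These groups were set by the same ratios that the test compared. The other probes that crossed 2-fold on one side alone did not pass the test of the difference. With 2 arrays a side this does not show that their ratios were equal.

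The strongest responses were about as close in size as the tested probes in general. Of 86 probes with at least 8-fold change on rep3-4, 76 lay within 0.5 of their log2 ratio on rep5-6, against 88.9% of all tested probes. The median absolute difference of the 86 was 0.22, against 0.17 over all tested probes. Over all tested probes the mean log2 ratios of the sides correlated with r = 0.887, and over the 5384 unsaturated probes above the median brightness with r = 0.934. The points of these correlations are probes of the same 4 arrays and are not independent replicates. Single arrays correlated with r = 0.984 between rep3 and rep4 and 0.91 between rep5 and rep6. Across sides r ranged from 0.852 to 0.875. The SD of the difference between single arrays over probes was 0.124 on rep3-4 and 0.309 on rep5-6, and 0.355 to 0.385 across sides, so that arrays of different sides differed by somewhat more than rep5 and rep6 did from each other. The SD of the log2 ratio itself was 0.69 and 0.67 on rep3 and rep4, against 0.73 and 0.72 on rep5 and rep6.

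**Figure D2:**
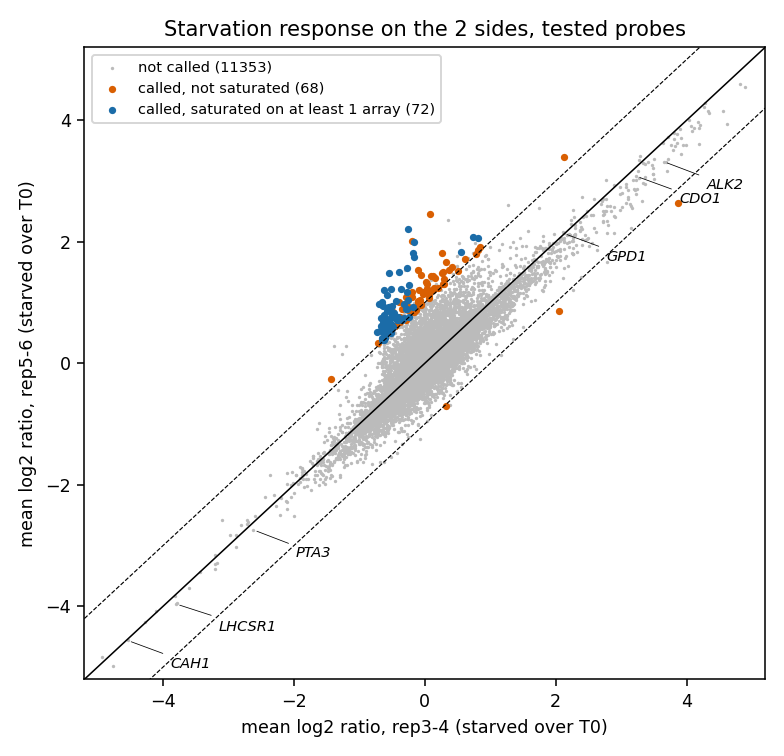
Mean log2 ratio (starved over T0) of each of the 11493 tested probes on rep3-4 (x axis) and rep5-6 (y axis). The solid line marks equal ratios and the dashed lines a 2-fold difference between the sides. Grey points were not called different, orange points were called and not saturated, blue points were called and saturated on at least 1 array, and *CAH1*, *LHCSR1*, *PTA3*, *ALK2*, *CDO1* and *GPD1* lie near the solid line.

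Genes of the response that was found on both sides are given next. Apart from the genes of the sulfur table below they were chosen after their values were seen. Among genes lower in starved cells, *CAH1* (model 24120), a carbonic anhydrase of the periplasm known for its induction under low CO2, had log2 ratios with probe 1 of −4.66 and −4.41 on rep3 and rep4, against −4.46 and −4.65 on rep5 and rep6. The values of the sides overlapped, and the difference was 0.02 (95% interval −0.34 to 0.38). The Cy5 intensity less background of this probe was low on rep5 and rep6, with 25 and 21.5, against 220 and 248 on rep3 and rep4. Probe 24120/3 had −2.44 and −2.29 on rep3 and rep4, against −1.91 and −1.75 on rep5 and rep6, with no overlap and a difference of −0.53 (limma adjusted p = 0.051). *LHCSR1* (184724), a stress-related light-harvesting protein that dissipates excess energy, had −3.78 and −3.82 on rep3 and rep4, against −3.90 and −4.03 on rep5 and rep6. Its difference was 0.16 (−0.04 to 0.37). *PTA3*, whose probes are printed above, had −2.65 and −2.59 with probe 1 on rep3 and rep4, against −2.73 and −2.74 on rep5 and rep6, a difference of 0.12 (−0.04 to 0.28). Probe 2, which lies within probe 1, differed by −0.09, and probe 3 by −0.56 with −0.73 on rep5 and −1.44 on rep6.

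The enzymes *IPY3*, *CIS2* and *ACS1* of central metabolism were below T0 on both sides with most of their probes. Other enzymes, such as *GPD1* below, were above T0. *IPY3* (174103), a soluble inorganic pyrophosphatase, had −2.74 and −2.67 with probe 1 on rep3 and rep4, against −2.67 and −2.48 on rep5 and rep6. Its probe 174103/3 had −1.63 and −1.59 on rep3 and rep4, against −2.25 and −1.75 on rep5 and rep6, and the dim 174103/2 lay near T0, with −0.04 and 0.08 on rep3 and rep4, against 0.03 and 0.23 on rep5 and rep6. The probes of *IPY3* thus disagreed on the size of the change. *CIS2* (24263), a citrate synthase, had −1.88 and −1.84 with probe 1 on rep3 and rep4, against −1.92 and −1.88 on rep5 and rep6, a difference of 0.04 (−0.12 to 0.20), and its probes 24263/2 and 24263/3 differed by 0.23 and 0.22. *ACS1* (194063), an acetyl-CoA synthetase, which activates acetate, had −1.25 and −1.30 with probe 2 on rep3 and rep4, against −1.28 and −1.36 on rep5 and rep6. For these 3 genes the sides overlapped or touched with probe 1 of *IPY3* and *CIS2* and probe 2 of *ACS1*. *NAB1*, which in *C. reinhardtii* represses translation of light-harvesting mRNAs, had −2.76 and −2.86 on rep3 and rep4, against −2.68 and −2.64 on rep5 and rep6, with all values below T0 by more than 2-fold and a difference of −0.15 (−0.34 to 0.04). *LCR1* (205566), a regulator of low-CO2 genes, had −2.08 and −2.14 with probe 3 on rep3 and rep4, against −2.29 and −2.50 on rep5 and rep6. The sides of *LCR1* did not overlap, but its difference of 0.29 did not pass limma's test (Benjamini-Hochberg adjusted p = 0.14). Cy5 intensity less background on rep5 and rep6 was low for *NAB1* (15 and 11), *ACS1* (20 and 19) and *LCR1* (22 and 22.5). Their ratios on rep5-6 thus rest on dim signals.

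Among genes higher in starved cells, *ALK2* (145741), an Aurora-like kinase, had 3.74 and 3.56 on rep3 and rep4, against 3.28 and 3.35 on rep5 and rep6. *CDO1* (143892), a cysteine dioxygenase, which oxidises the sulfur of cysteine, had 3.29 and 3.18 with probe 2 on rep3 and rep4, against 3.03 and 3.14 on rep5 and rep6. The difference was 0.33 (0.08 to 0.58) for *ALK2*, with a Benjamini-Hochberg adjusted p of 0.096 in limma, and 0.15 (−0.07 to 0.37) for *CDO1*. *NRX2* (182094), a nucleoredoxin, had 2.42 and 2.36 with probe 2 on rep3 and rep4, against 2.28 and 2.21 on rep5 and rep6. *GPD1* (146945), which makes glycerol 3-phosphate, had 2.15 and 2.08 on rep3 and rep4, against 2.14 and 2.14 on rep5 and rep6, a difference of −0.03 (−0.19 to 0.14). *HSP22A* (134508), a small heat shock protein, had 2.35 and 2.17 on rep3 and rep4, against 1.67 and 1.94 on rep5 and rep6. Its difference of 0.46 (0.10 to 0.82) did not pass (adjusted p = 0.1), so these genes were more than 2-fold above T0 on all 4 arrays with the probes shown and had no called difference. Probe 182094/3 of *NRX2* was lower, with 1.34 and 1.45 on rep3 and rep4, against 1.48 and 0.90 on rep5 and rep6.

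The state named by the labels was checked with markers of sulfur starvation. *SLT1* (205507), a sodium/sulfate co-transporter, had log2 ratios of 1.91 and 1.70 on rep3 and rep4, against 2.01 and 2.18 on rep5 and rep6. No probe of the arylsulfatases *ARS1* and *ARS2* or of the extracellular protein *ECP88* was well above background in Cy5 on rep5-6. On rep3-4 this held for *ARS1* and *ECP88*, and 1 probe of *ARS2* was above background on 1 array, so these defining markers were at or near background. *ECP76*, an extracellular protein poor in sulfur amino acids, had 1 probe of 3 well above background in Cy5 on both rep3 and rep4 with T0 not, at least 4.54-fold above T0, and none on rep5-6. *LHCBM9* (184479), an antenna protein known from sulfur-starved cells, was at least 3.8-fold above T0 on rep3-4 with probe 3 and not well above background on rep5-6. Its probe 1, well above background in both channels on rep3 and rep4, had 1.63 and 1.23 there. *LHCSR1*, also on the marker list, went the other way from *SLT1*, with all 3 probes below T0 on all 4 arrays, between −2.74 and −3.82 on rep3-4 and between −3.09 and −4.03 on rep5-6. The study reports *LHCSR1*, *ARS1*, *ARS2* and *ECP88* as raised by sulfur starvation, averaged over its time points. The bounds above set the starved mean against the lowest signal called well above background. With Cy5 dimmer on rep5-6, the lack of a signal there was not a measured difference.

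The sulfur genes tabulated by the study were compared next. Each of the 38 models is shown by its called probe with the largest difference, or by probe 1 where none was called, so that the count of calls depends on the outcome. Of 30 models tested by that probe 2 (6.67%) were called, *LHCBM7* and *ATPC*, both saturated and described below, against 1.22% of all tested probes. By probe 1 alone 1 of 30 (3.33%) was called, *LHCBM7*. Of the 30, 26 differed by less than 0.5, among them all 22 that were not saturated, and 27 had the same sign on both sides. The study chose these genes for their response to starvation, so the shared sign is no independent evidence of it. The sign was often not the study's, whose values are averages over its time points. *LHCSR1*, *ELI3*, *ATS2*, *LHCSR3* and model 81427 (chloroplast SRP54), raised in the study, had means below T0 here on both sides with probe 1. Probe 2 of *LHCSR3* was above T0. *SLT3*, *PSBX*, *CCP1*, *LHCA8*, *PSAH*, *LHCA1*, *LHCA5*, *LHCA7*, *LHCB5* and *LHCBM7*, lowered in the study, were above T0 on both sides with the probe shown. Of these, all from *PSAH* to *LHCBM7* were saturated on at least 1 array. The sign of the study was found for *SLT1*, *SLT2*, *SUOX1*, *LHCSR2*, *CDJ4*, *PRPL29*, *EFG1*, *CSP41a*, *CSP41b*, *IPY3*, *LHCBM4* and *LHCBM8*.

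Among sulfate transporters, *SLT2* (205506) had 1.31 and 1.34 on rep3 and rep4, against 0.98 and 0.91 on rep5 and rep6. *SLT3* (205505) had 0.99 and 1.00 with probe 1 on rep3 and rep4, against 0.84 and 0.87 on rep5 and rep6. Every value of both co-transporters was higher on rep3-4, by 0.38 (0.22 to 0.54) for *SLT2*, with an adjusted p of 0.041 in limma but under 2-fold, and by 0.14 (−0.01 to 0.29) for *SLT3*. Probe 2 of *SLT3* (205505/2) had a larger difference of 0.40 (adjusted p = 0.053). *SLT1* went the other way, by −0.29 (−0.59 to 0.02), and did not pass (adjusted p = 0.17). Its Cy5 intensity less background was 230 and 230 on rep3 and rep4, against 38 and 18 on rep5 and rep6. In the assimilation pathway *ATS2* (133924), an ATP sulfurylase, which activates sulfate, had −0.12 and −0.13 on rep3 and rep4, against −0.41 and −0.53 on rep5 and rep6, with an adjusted p of 0.059. *SUOX1* (59800), a sulfite oxidase, had 0.30 and 0.27 on rep3 and rep4, against 0.19 and 0.25 on rep5 and rep6. *OASTL1*, an enzyme of cysteine synthesis, had 0.12 and 0.08 on rep3 and rep4, against −0.70 and −0.01 on rep5 and rep6, where the arrays of rep5-6 disagreed. Its other probes differed by 0.24 and 0.22. Over the 19 tested probes of sulfate uptake and assimilation the median log2 ratio was 0.48 on rep3-4 and 0.43 on rep5-6, with 0 probes called.

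In the direct comparison no probe (0 of 11493, 0%) passed the paper's criteria, Holm-adjusted p under 0.05 and at least 2-fold, in limma. The smallest Holm-adjusted p was 0.066. At an unadjusted p under 0.05 there were 3723 probes, 2124 higher and 1599 lower on rep3-4. With Benjamini-Hochberg adjustment and at least 2-fold, 140 probes (1.22%) were called, 3 higher on rep3-4 (0.0261%) and 137 lower (1.19%), from 112 models. The filter was not neutral to direction, since a dim probe was tested only if its Cy5 was well above background on rep5-6. The 7003 probes that qualified on rep3-4 alone were left out and could not be called higher there. The part of the filter in this split was not tested. With either rep3 or rep4 left out 0 probes were called. Without rep5 218 were called, 124 of them among the 140, and without rep6 285, 122 of them among the 140. The one-sided split of the calls depended on the processing, with 131 higher and 130 lower after scaling between arrays, 69 higher and 148 lower with normexp background correction, and 75 higher and 157 lower without background subtraction. An exact permutation test of 2 arrays against 2 has 6 splits and cannot give a two-sided p below 0.333, so it was not used for calls. Over all tested probes the median difference was 0.06 and the median absolute difference 0.17. The sides lay within 0.5 of each other for 88.9% of probes and within 1 for 98.5%.

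The called probes lay at the ends of the brightness range. In 5 equal bins of the tested probes by mean brightness, from dim to bright, 44, 12, 5, 3 and 73 were called lower and 3, 0, 0, 0 and 0 higher. The brightest bin held all 362 tested probes that were saturated on at least 1 array. Of these 362, 72 were called lower (19.9%), against 65 of 11131 probes that were not saturated (0.584%). In the dimmest bin the SD between rep5 and rep6 was 0.38 and that between rep3 and rep4 was 0.19. In bin 4 both were smaller, 0.26 between rep5 and rep6 and 0.08 between rep3 and rep4. Calls were most frequent in the brightest and the dimmest bin.

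**Figure D3:**
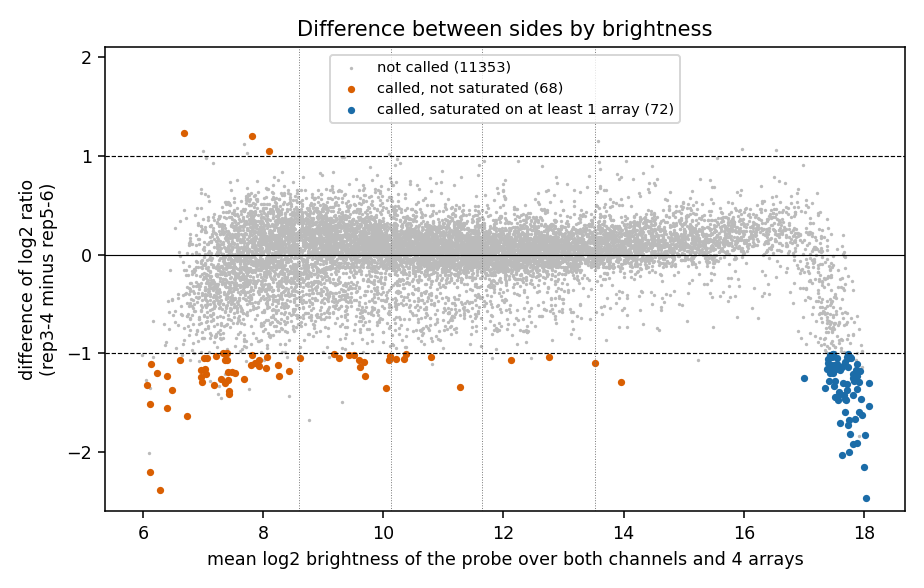
Difference of the log2 ratio (rep3-4 minus rep5-6) of each tested probe against its mean log2 brightness over both channels and the 4 arrays. Dashed lines mark a 2-fold difference and dotted lines the 5 bins by brightness. Of the 140 called probes, 72 saturated ones (blue) sit at the bright end with lower ratios on rep3-4, and 60 of the 65 unsaturated ones called lower (orange) lie below the median brightness.

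For saturated probes the ratio was not measured. When both channels reach the scanner's ceiling the ratio is set by the ceiling and not by the RNA. When Cy5 alone does, the ratio is a lower bound, and when Cy3 alone does, an upper bound. Both channels were saturated on rep3 and rep4 for 158 tested probes, of which 61 were called lower. No fold change is given for these, and the differences below are only those of the deposited signals. Of the 38 probes at least 0.5 above 0 on one side and at least 0.5 below 0 on the other, 37 were saturated. The exception, 144027/1, had −0.45 and −0.60 on rep3 and rep4, against 0.12 and 0.93 on rep5 and rep6, and was not called (adjusted p = 0.11 in limma).

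The named genes among these belong to abundant transcripts. *GLN2*, a glutamine synthetase, which binds ammonium to glutamate, had signal ratios of −0.64 and −0.69 with probe 3 on rep3 and rep4, against 0.61 and 0.60 on rep5 and rep6. Its signal difference was −1.27 and those of probes 1 and 2 were −1.11 and −1.10, and all 3 probes were saturated in both channels on rep3-4. Cy3 of all 3 was at the ceiling on rep5 and rep6 too, so the ratios there were upper bounds. *RPL9* (109540), a protein of the large subunit of the cytosolic ribosome, had −0.48 and −0.56 with probe 1 on rep3 and rep4, against 0.64 and 0.64 on rep5 and rep6. Its signal differences were −1.16 with probe 1 and −1.05 with probe 2, both saturated. Cy3 of both was at the ceiling on rep5 and rep6 as well, so these ratios were also upper bounds. Probe 3, not saturated, had −0.38 and −0.46 on rep3 and rep4, against −0.81 and −0.70 on rep5 and rep6, with a difference of 0.33 (adjusted p = 0.069). The unsaturated probe thus had the opposite sign.

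*ATPC* (134235), the gamma chain of the chloroplast ATP synthase, had signal ratios of −0.65 and −0.69 with the saturated probe 2 on rep3 and rep4, against 0.75 and 0.75 on rep5 and rep6, a signal difference of −1.42. Its unsaturated probes 1 and 3 differed by 0.04 and −0.05. Model 108283, whose best hit in *Arabidopsis* is a small subunit of Rubisco, had −0.56 and −0.55 with the saturated probe 1 on rep3 and rep4, against 0.70 and 0.75 on rep5 and rep6, a signal difference of −1.28. Its unsaturated probes 2 and 3 differed by 0.01 and 0.14. For both genes the saturated and unsaturated probes gave different ratios on rep5-6 as well. Cy3 of both saturated probes was at the ceiling of 65535 on rep5 and rep6 too, so their ratios there were upper bounds. *LHCBM7* (184071), a protein of the main light-harvesting complex of photosystem II, had 0.72 and 0.75 with probe 3 on rep3 and rep4, against 2.08 and 2.08 on rep5 and rep6, a difference of −1.35. Probe 1 differed by −1.28. Cy5 of both probes was saturated on rep3-4, so the ratio there was a lower bound. Cy3 of probe 1 was saturated on rep5 as well. The unsaturated probe 2, which was dim, had 1.99 and 1.63 on rep3 and rep4, against 1.44 and 0.94 on rep5 and rep6, with a difference of 0.62 (adjusted p = 0.16).

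Other saturated models also had lower signal ratios on rep3-4. The pair of probes of model 195590 with 1 sequence had −0.60 and −0.66 (probe 1) and −0.64 and −0.68 (probe 3) on rep3 and rep4, against 1.24 and 1.15 (probe 1) and 1.02 and 0.90 (probe 3) on rep5 and rep6. Cy3 of this pair was at the ceiling on rep5 and rep6 too, so the ratios there were upper bounds. The third probe of this model was not called and differed by 0.23. All 4 tested probes of model 185533 were called, with signal differences of −1.92 to −2.47, the last of which was the lowest of all tested probes. Their Cy5 was at the ceiling on rep3 and rep4 with Cy3 below it, so the ratios there were lower bounds. On rep5 and rep6 Cy3 of all 4 was at the ceiling. Cy5 of 185533/2 and 185533/3 was at the ceiling there too, so their ratios on rep5-6 were set by the ceiling. Of the 22 models with at least 2 called probes, 19 had saturated ones. Among antenna and photosystem genes a further 20 saturated probes were not called, 16 of them with a signal difference below 0. The lowest was 192961/3 (*LHCA7*, a photosystem I antenna protein) with −0.94 and the highest 184397/1 with 0.41. Others were *PSAO* (193847/1), a photosystem I subunit, with −0.85, *LHCB4* (184810/2), an antenna protein of photosystem II, with −0.84, and *FNR1* (195553/3), a ferredoxin-NADP reductase, with −0.60. Model 184397, named *LHCB5* in one of the study's tables and *LHCBM3* in another, had 1.36 and 1.25 with probe 1 on rep3 and rep4, against 0.85 and 0.94 on rep5 and rep6. *LHCA8* (187025), another photosystem I antenna protein, had 0.62 and 0.57 with the unsaturated probe 1 on rep3 and rep4, against 0.39 and 0.26 on rep5 and rep6.

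**Figure D4:**
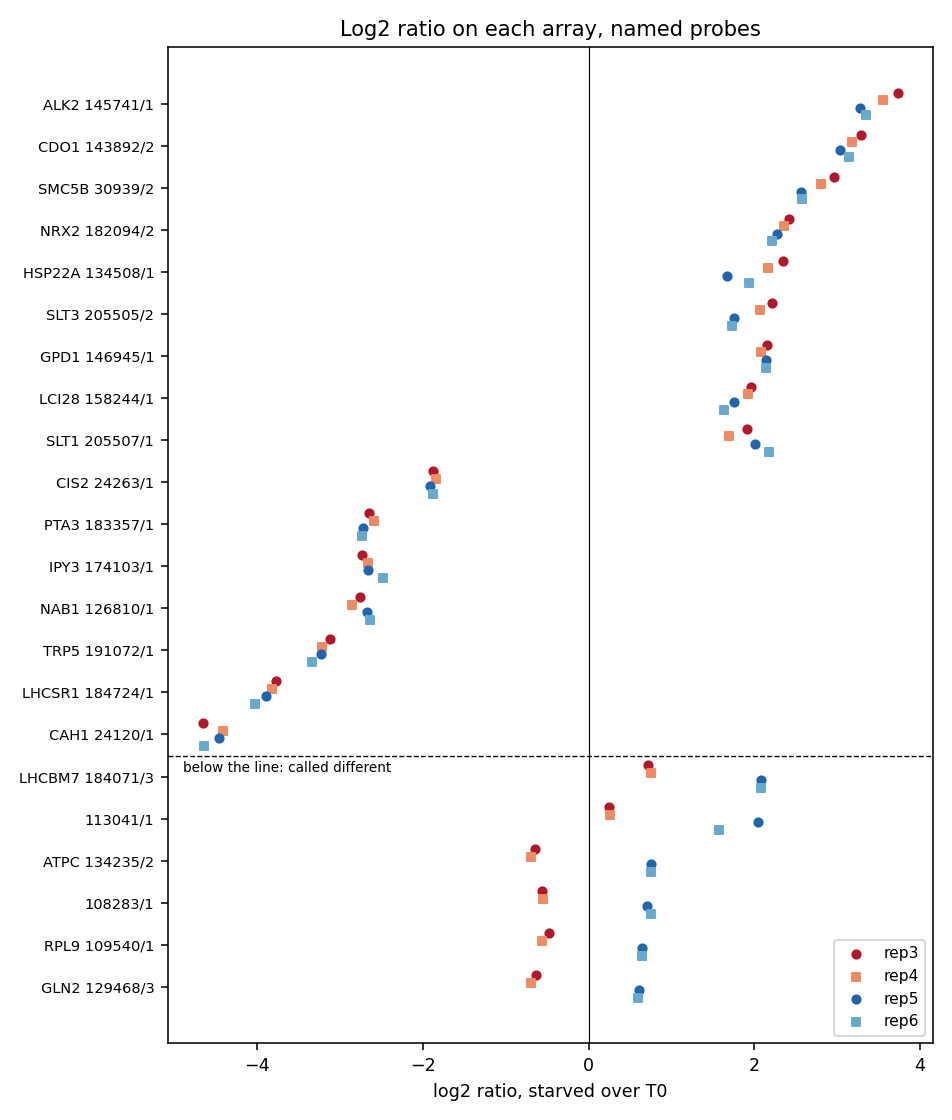
Log2 ratio (starved over T0) of named probes on rep3, rep4, rep5 and rep6. Above the dashed line the 4 arrays lie close together for probes that were not called, from *ALK2* at 3.74 to 3.28 down to *CAH1* at −4.41 to −4.66. Below it are the 6 named probes called lower on rep3-4, all saturated except 113041/1.

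The 65 unsaturated probes called lower had a median difference of −1.13 and were mostly dim. Their median Cy5 intensity less background was 96.5 on rep3-4 and 28.8 on rep5-6, against 1010 on rep3-4 and 116 on rep5-6 for all unsaturated tested probes. Their median Cy3 intensity was 73.5 on rep3-4 and 75.5 on rep5-6, against 612 on rep3-4 and 520 on rep5-6 for all. Cy3 intensity was under 50 on rep3-4 for 15 of the 65 (23.1%), against 2.25% of all unsaturated tested probes. The called probes were thus several times dimmer in both channels, and their part in the result was not tested. The larger part of the difference lay in Cy5, the starved RNA, for 64 of the 65. Of these 65, 2 had a name in the tables. The first, 113041/1 (best *Arabidopsis* hit a diacylglycerol kinase, which phosphorylates diacylglycerol), had 0.25 and 0.26 on rep3 and rep4, against 2.04 and 1.58 on rep5 and rep6, a difference of −1.55 (−2.04 to −1.06, limma adjusted p = 0.027). The second, 196784/3 (*NADK1*, an ATP-NAD kinase, which makes NADP), fell outside the rule for named genes and was chosen after its values were seen. It had −0.03 and −0.09 on rep3 and rep4, against 1.72 and 1.18 on rep5 and rep6, a difference of −1.51, whereas probe 196784/1 differed by 0.07. The probes of this gene thus disagreed.

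Few of these calls were shared by another probe of the model. Of the 65 probes, 31 had another tested probe of the same model, and for 6 of them another probe was called too. The 35 uncalled tested probes of these models had a median difference of −0.19. Models 169295, 173965 and 143968, which have no name in the study's tables and were chosen after their values were seen, account for the 6. Model 169295 (RefSeq locus tag CHLRE_10g440950v5) had −0.27 and −0.45 with probe 1 on rep3 and rep4, against 0.80 and 0.62 on rep5 and rep6. Probe 2 had −0.30 and −0.28 on rep3 and rep4, against 0.73 and 0.70 on rep5 and rep6. The differences were −1.07 and −1.01, and since these probes share 47 of 60 bases, as printed above, they measure nearly the same target.

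Model 173965 (CHLRE_02g142900v5) had 0.29 and 0.29 with probe 1 on rep3 and rep4, against 1.38 and 1.38 on rep5 and rep6. Probe 2 had 0.32 and 0.21 on rep3 and rep4, against 1.47 and 1.51 on rep5 and rep6. The measured ratios of this model were thus above 2-fold on rep5-6 and close to T0 on rep3-4, with differences of −1.09 and −1.23. In limma the Benjamini-Hochberg adjusted p was 0.016 for both, and the Holm-adjusted p was 0.48 and 0.76. Model 143968 (CHLRE_03g170200v5) had 0.90 and 0.81 with probe 1 on rep3 and rep4, against 1.91 and 1.92 on rep5 and rep6. Probe 2 had 0.84 and 0.72 on rep3 and rep4, against 1.77 and 1.84 on rep5 and rep6, so that the model was above T0 on both sides and more so on rep5-6. Its Cy5 intensity less background with probe 1 was 776 and 662 on rep3 and rep4, against 295 and 232 on rep5 and rep6.

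Of the 65 unsaturated probes, 5 lay above the median brightness of the tested probes. They were 142219/3, 170495/3, 183576/3, 184740/3 and 196918/3, with differences of −1.34, −1.10, −1.29, −1.04 and −1.07. Each is a probe numbered 3, which may come from the first-generation array. The paper reports lower log2 ratios for first-generation probes and a high potential for cross-hybridization for many, and did not use their data. All 5 had Cy5 intensities less background of at least 1520 on rep3-4 and at least 344 on rep5-6. For 142219/3 the ratios were 0.37 and 0.30 on rep3 and rep4, against 1.74 and 1.60 on rep5 and rep6, and probe 2 of this model had 0.17 and 0.17 on rep3 and rep4, against 0.82 and 0.76 on rep5 and rep6. Both probes were lower on rep3-4, although probe 2 did not reach 2-fold (−0.62, adjusted p = 0.022). Likewise 170495/3 had 0.17 and 0.12 on rep3 and rep4, against 1.21 and 1.28 on rep5 and rep6, and probe 1 differed by −0.71 (adjusted p = 0.034). For 183576/3, printed above, the ratios were 0.31 and −0.04 on rep3 and rep4, against 1.56 and 1.29 on rep5 and rep6, but probe 2 of the model differed by 0.06. The other tested probe of model 196918 differed by −0.18, so these models' probes disagreed.

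Disagreement between probes of a model was also seen in the dimmest calls. Probe 3 of model 102299 had −0.09 and −0.29 on rep3 and rep4, against 1.94 and 2.07 on rep5 and rep6, a difference of −2.20, whereas probes 1 and 2 differed by −0.15 and −0.10. Its Cy5 intensity less background was 37.5 and 44 on rep3 and rep4, against 19 and 13 on rep5 and rep6. Over all 3888 models with at least 2 tested probes, the probes differed in the same direction for 2201 (56.6%). The share was 65.6% for models with 2 tested probes and 43.9% for those with 3. Called probes of a model in opposite directions were found for 0 models. Only 2 of these models had a probe called higher, so this count could hardly have been otherwise.

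The 3 probes called higher on rep3-4 were 161785/1, 190813/1 and 194395/3, none with a name in the tables. Probe 161785/1 had 2.20 and 1.91 on rep3 and rep4, against 0.93 and 0.78 on rep5 and rep6, a difference of 1.20 (limma adjusted p = 0.027). Model 194395 was strongly above T0 on all arrays, with 3.65 and 4.09 for probe 3 on rep3 and rep4, against 2.71 and 2.57 on rep5 and rep6. Its probe 1 had 4.11 and 3.70 on rep3 and rep4, against 3.64 and 3.79 on rep5 and rep6, so that a difference was called for 1 of its 3 probes. Probe 190813/1 differed by 1.05 and the other probes of that model by 0.08 and 0.16. All 3 called probes were in the dimmest bin.

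Set apart by channel after Aquantile normalization, the difference between sides varied more in Cy5 than in Cy3. The SD over probes was 0.36 for the Cy5 difference and 0.14 for the Cy3 difference. The difference of the log2 ratio correlated with the Cy5 difference with r = 0.921 and with the Cy3 difference with r = −0.00909, across 11493 probes that share the 4 arrays. The ratio difference is the Cy5 difference minus the Cy3 difference, so these correlations follow in part from the larger SD of Cy5. With each channel scaled to its 75th percentile instead, r was 0.916 with the Cy5 difference and 0.275 with the Cy3 difference. Of the 137 probes called lower, 131 had the larger part in Cy5 and 6 in Cy3. Cy5 carries the starved RNA but also the dim signal of rep5-6, and these cannot be told apart.

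Repeated sequences gave the precision within an array. Among the tested probes, 44 pairs had the same sequence, 16 of them in different models. Their log2 ratios differed by a median of 0.05 on rep3 and 0.07 on rep4, against 0.11 on rep5 and 0.17 on rep6. The difference between sides of such pairs disagreed by a median of 0.10 and at most 0.50. On single arrays the largest gap of a pair was 0.35 on rep3 and 0.26 on rep4, against 1.05 on rep5 and 0.78 on rep6. Ratios were thus less repeatable on rep5-6.

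Lists of genes were compared by counts and medians beside those over all tested probes, of which 1.19% were called lower and 0.0261% higher, with median log2 ratios of 0.04 on rep3-4 and 0.05 on rep5-6. Gene names came from the study's tables, whose genes were chosen for their response to starvation. No listed probe (0) was called higher on rep3-4. Of the 35 probes of the light-harvesting antenna 2 were called lower, both of *LHCBM7*, and 16 were saturated on at least 1 array. The antenna median was 0.06 on rep3-4 and 0.32 on rep5-6. These medians include the saturated probes, whose ratios were not measured, so the gap between them is not a measured change. Among photosystem and electron transport genes 1 of 24 probes was called, among Calvin cycle genes 1 of 12, in the cytosolic ribosome 2 of 9 and in nitrogen assimilation 3 of 19, all saturated and all named above. In lipid metabolism 1 of 11 probes was called, the dim probe of model 113041.

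In the remaining lists 0 probes were called. The plastid ribosome, which translates chloroplast mRNAs, had a median of −0.84 on rep3-4 and −0.81 on rep5-6 over 7 probes. The 8 probes of the tricarboxylic acid and glyoxylate cycles had −0.98 on rep3-4 and −1.08 on rep5-6, and the 7 probes of phosphate genes −0.96 on rep3-4 and −1.07 on rep5-6. These lists were below T0 on both sides by like amounts. The 16 probes of cell wall and extracellular matrix genes had 0.85 on rep3-4 and 0.69 on rep5-6, with 7 probes at least 2-fold up on both. The 27 probes of hydrogenase and fermentation genes had 0.12 on rep3-4 and −0.02 on rep5-6, with 3 at least 2-fold up on both. The 8 probes of stress-related light harvesting had 0.16 on rep3-4 and −0.02 on rep5-6. Of autophagy genes 0 were tested.

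**Figure D5:**
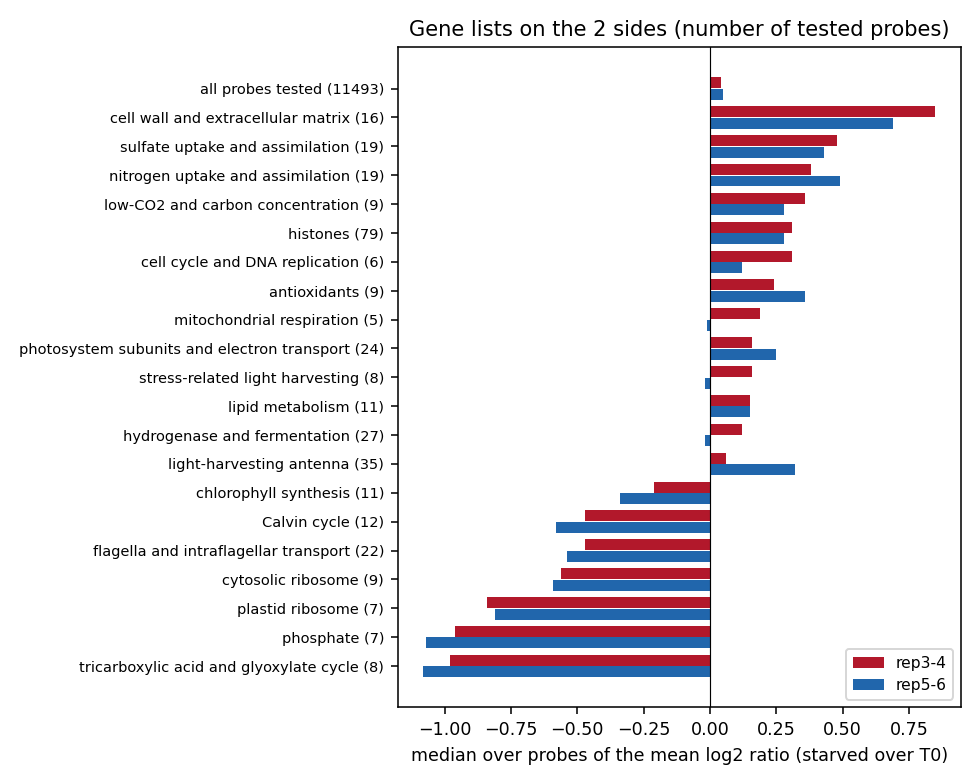
Median over tested probes of the mean log2 ratio (starved over T0) on rep3-4 (red) and rep5-6 (blue), for lists with at least 5 tested probes; the number of probes is in brackets and all probes tested are at the top. The sides lie close for most lists, for example −0.84 on rep3-4 and −0.81 on rep5-6 for the plastid ribosome. The antenna has 0.06 on rep3-4 and 0.32 on rep5-6, medians that include 16 saturated probes of 35, whose ratios were not measured.

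Histone H2B, a core protein of nucleosomes, is encoded by many near-identical copies, so that its probes may bind transcripts of several copies and single copies are uncertain. Probe 3 of the 25 tested H2B models had log2 ratios between 1.06 and 1.45 on rep3-4, with a median of 1.16, and between 0.59 and 1.25 on rep5-6, with a median of 0.89. Probe 1 of 25 models had medians of 0.24 on rep3-4 and 0.15 on rep5-6, and probe 2 of 24 models 0.26 on rep3-4 and 0.28 on rep5-6. The probes of 1 histone family thus differed more by probe number than by side, and 0 were called. All 25 models passed 2-fold with probe 3 on rep3-4 and 5 of them on rep5-6. The difference was above 0 for 24 of the 25 with probe 3, for 21 of 25 with probe 1 and for 10 of 24 with probe 2, against 6960 of all 11493 tested probes.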

How the data were processed

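The authors deposited the output of the scanner software for each 2-colour array, Agilent Feature Extraction 10.7.3.1 per the submitters' processing notes. Its processed signals are intensities corrected by the software for background, trends and dye. The authors' deposited files also hold median spot and background intensities and log10 ratios of Cy5 over Cy3, and the deposited value table held the same log10 ratios, which were brought to the log2 scale for an alternative. Arrays have no read depth, and signal over background and the number of arrays limit the precision.

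Log2 ratios of processed signals were normalized by loess within each array on all transcript spots in limma 3.58.1 (R 4.3.3). Controls and spots that the software marked (uneven, or outliers) were excluded, saturated spots stayed in, and repeated spots were averaged. limma's moderated test compared rep3-4 with rep5-6, with no covariate. The paper's methods state lowess, Holm-Bonferroni at 0.05 and at least 2-fold, and Holm counts are given for each comparison. All other counts use "called", which means Benjamini-Hochberg adjusted p under 0.05 and at least 2-fold. Intervals are 95% intervals of limma's fit. Channels were compared after Aquantile normalization and, as an alternative, after scaling to the 75th percentile. An intensity less background is the median spot intensity less the local median background. For probes above background in 1 channel alone, the at-least fold set the starved mean against the lowest signal called well above background. The steps were tested on simulated data. Median spot intensities were used in the alternatives on background correction.

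The arrays, genes and lists were chosen with earlier results of these data known. Named genes were, by rule, models with called probes in the same direction and a name, up to 3 called members of each list, and the genes of the study's sulfur table. Each model, also of the sulfur table, was shown by its called probe with the largest difference, or by probe 1 where none was called. Names came from the study's tables, for 848 of the tested probes (410 models), leaving out the table that gave another symbol for 20 of 59 models, and locus tags from the RefSeq v5.5 table through older locus names, whose coordinates were not used. Alternatives covered normalization, background correction, filters, test, adjustment, size, arrays in the fit, labelled time, marked spots and leaving out each array. Rep1 and rep2 entered only the fit with all 6 cc3491 arrays. Plots used Python 3.11 with matplotlib 3.10.9.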

Additional observations from a re-analysis of the deposited data

Results flagged for a closer look

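In the direct comparison of rep3-4 with rep5-6, limma with Benjamini-Hochberg adjustment called 3 probes higher and 137 lower on rep3-4 by at least 2-fold. Probes too dim in Cy5 on rep5-6 were left out by the filter and could not be called higher. Among named probes the difference of the log2 ratio was −1.35 for LHCBM7 (184071/3), −1.27 for GLN2 (probe 3), −1.16 for RPL9 (109540/1), −1.55 for 113041/1, −1.42 for ATPC (134235/2) and −1.28 for 108283/1. All but 113041/1 were saturated on rep3-4, where no fold was measured, and 113041/1 was dim.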

How the results depend on the processing

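With Holm adjustment 0 probes passed, and the count was 1 without normalization, with quantile normalization, with the deposited value table and in the unmoderated test, 16 without background subtraction, 7 with probes below the median brightness left out, and 140 by Benjamini-Hochberg. With Benjamini-Hochberg adjustment, 3 higher and 137 lower became 7 higher with median centring, 9 higher and 74 lower with loess on the tested probes alone, 131 higher and 130 lower after scaling, 69 higher and 148 lower with normexp, and 75 higher and 157 lower without background subtraction. The count was 0 higher and 0 lower with probes above background in at least 1 channel and with labelled time as a number, 1 higher and 58 lower with all 6 arrays in the fit, and 0 higher and 1 lower in the unmoderated test. It was 61 lower among probes saturated on none, 0 higher and 5 lower at 4-fold, 403 higher and 827 lower with no minimum size, and 0 higher and 78 lower without the probes below median brightness. Leaving out these and the saturated probes together, an alternative chosen after seeing the data, gave 0 higher and 5 lower. With 1 array left out, Holm counts ranged from 0 to 2, higher counts from 0 to 67 and lower counts from 0 to 218; without rep3 and without rep4 they were 0 and 0, without rep5 30 higher and 188 lower, and without rep6 67 higher and 218 lower, the lone array being assumed to vary like the other side. Of the calls after scaling, normexp and no background subtraction, 101, 74 and 74 were among the 140. The 863 probes at least 2-fold the same way on both sides became 359 with normexp, 466 without background subtraction, 346 without the probes below median brightness and 342 without saturated ones as well; with 1 array left out the count ranged from 844 to 880. The SD of the log2 ratio, 0.68 on rep3-4 and 0.73 on rep5-6, was 0.58 on rep3-4 and 0.50 on rep5-6 with normexp, 0.61 on rep3-4 and 0.57 on rep5-6 without background subtraction, and 0.72 on rep5-6 without normalization. The median spike-in difference of 0.09 was 3.00 with uncorrected intensities less local background. The causes of these changes were not tested. Of 716 values of the 34 named probes under alternatives, 668 kept their side of the threshold, 41 lost the call, 7 gained it and 0 called values changed sign. No paired analysis was possible because the sides share no replicate number.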
